A study of Xenopus laevis with 16 samples.

Results

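Nodal5 explants at 24 h were compared with the same treatment at the earlier hours. The members are the 4 libraries labelled for Nodal5, of 16 libraries in the series, chosen by treatment and time alone. They are 1 library at 24 h and 3 earlier libraries, at 2.5, 5 and 7.5 h. Xenopus laevis embryos were injected with nodal5 mRNA, and their animal caps, which are still pluripotent ectoderm at the blastula stage, were cut out and cultured for the given time. Poly(A)+ RNA was then sequenced from a pool of explants. The other treatments were uninjected caps (control), caps injected with mRNA for GATA4-GR, a GATA4 fusion activated by dexamethasone, and caps injected with GATA4-GR and the Wnt antagonist Dkk-1. Each was sampled once at each of the 4 time points. The nodal5 dose was one that the study's methods call cardiogenic. Control caps were uninjected, so nodal5 and the injection itself cannot be told apart. There were no replicates at any time point.

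Nodal proteins are secreted ligands of the TGF-β family. They signal through activin receptors and Smad2/3, which act with DNA-binding partners such as FoxH1, and in vertebrate embryos they induce the mesoderm and the endoderm. Animal cap cells left alone form epidermis. Blastula cells still carry RNA that the mother loaded into the egg, and this RNA is cleared while the embryo's own genes come on.

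The table gives each gene as a JGI v7.2 gene model, and no identifier could be paired with a gene name (0 of 54142). The course is therefore described by groups of models, and the labelled tissue could not be checked against its marker genes. For the same reason no sequences are shown. At most 2 models that rose and 2 that fell are given by identifier.

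The make-up of the Nodal5 libraries was different at 24 h. The 100 most abundant models held 7.94% of the counts in the library of 2.5 h. Their share was 9.69% at 5 h, 12.4% at 7.5 h and 19.4% in the late library. The effective number of models, which is the number of equally abundant models that would give the same diversity, was 9086, 8377, 7405 and 5273 in the same order. More models were nonetheless counted at 24 h. With every Nodal5 library thinned to 11381810 counts, 21183 models had at least 10 counts at 2.5 h and 22425 at 24 h, with 21575 and 21909 at the hours between. RNA at 24 h was thus spread over slightly more models but concentrated in fewer of them. Of the 100 most abundant models at 24 h, 62 were among the 100 most abundant at 7.5 h, 44 at 5 h and 36 at 2.5 h. None of these 100 had an earlier mean below 1 CPM (counts scaled to a common library size), and 3 of them were at least 16-fold above their earlier mean. The most abundant RNA species of the late explants were therefore already counted in the earlier libraries. Counted the other way, 56 models were among the 100 most abundant in all 3 earlier libraries, and 33 of these stayed among the 100 at 24 h. Total counts were 16779269, 23007105 and 11381810 in the earlier libraries, in order of time, and 14053552 in the late one. In the other treatments they ran from 11339819 to 23310242. In RNA from whole explants, fewer cells of a type and less RNA per cell cannot be told apart.

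Similar numbers of gene models rose and fell in the Nodal5 explants by 24 h, under the scaling used. Of 26474 models tested, 6343 were higher at 24 h than earlier (24%) and 6200 were lower (23.4%), with edgeR's quasi-likelihood test at an adjusted p-value under 0.1. Together these were 47.4% of the models tested. The models that rose had a median log2 fold change of 2.28 (quartiles 1.5 and 3.64), and those that fell had a median of -1.95 (quartiles -2.81 and -1.36). Over all models tested the median was -0.04 (quartiles -1.2 and 1.23). Large rises were more numerous than large falls, with 781 models that rose and 330 that fell by at least 5 on the log2 scale. Some of these had a count of 0 on one side (91 of all that rose and 175 of all that fell), where the fitted value is no bound. With such models set at a floor of 3 counts on that side, 745 rose and 159 fell by at least 5, and the medians were 2.28 and -1.92. The 3 earlier libraries together hold more counts than the 24 h library. A large rise can thus be seen from a lower level than a large fall, which favours rises in these counts. In every model called, the 24 h level lay outside the range of the 3 earlier levels. This was also true of 4909 models above that range and 4849 below it that were not called.

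The error in this test comes from the 3 earlier libraries, which differ in time and are not replicates, and the single 24 h library is assumed to vary like them. With 2 residual degrees of freedom, 12751 models had an unadjusted p-value under 0.05. Between 2.5 and 7.5 h, 28.7% of the models tested differed at least 2-fold. Between 2.5 and 5 h 11.4% did, and between 5 and 7.5 h 12.3%. When earlier libraries were left out singly, the count fell only without the 5 h library, where 2.5 and 7.5 h remained. Without it 1416 models were called, 1063 higher and 353 lower, and each of them was also called with all 4 libraries. Without the 2.5 h library 12891 models were called, and without the 7.5 h library 15369. The split between directions depended on scaling. With library totals alone, 4725 models were higher and 8315 lower, and the median log2 fold change of all models was -0.42, a shift of -0.38. With upper quartile scaling it was 0.15, a shift of 0.19. An exact permutation test of 1 library against 3 cannot give a p-value below 0.25 for a single model. In the labels, the library names of all 4 treatments at 5 h, and of no other hour, carry the word reseq, so whatever it stands for and that hour cannot be told apart.

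**Figure D1:**
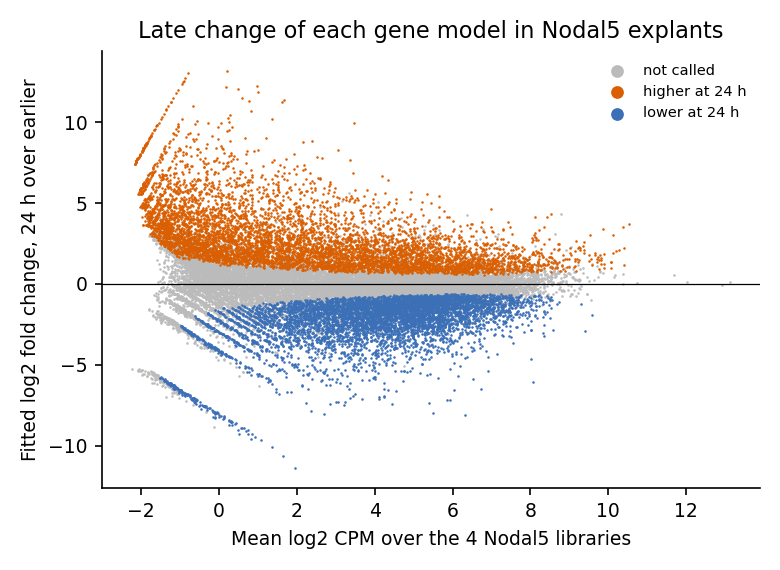
Fitted log2 fold change of 24 h over the earlier Nodal5 libraries (vertical axis) against the mean log2 CPM over the 4 Nodal5 libraries (horizontal axis), 1 point per gene model. Models called higher (6343, orange) lie above the line of no change and models called lower (6200, blue) below it. Models not called (13931, grey) overlap with both, and 3773 of them had a fitted change of at least 1 in either direction. Since 3 of the 4 libraries in the mean are earlier ones, a large rise is placed at a low mean by the way the axis is made.

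The models tested were cut by their mean level over the 4 Nodal5 libraries into 4 groups of equal size. As 3 of these libraries are earlier ones, a model that rose is placed lower and one that fell higher by this mean, so the counts are a description only. In the lowest group (median 0.776 CPM) 1903 rose and 540 fell, and in the next (median 4.33 CPM) 1793 rose and 1416 fell. With a median of 20.1 CPM 1285 rose and 2234 fell, and in the highest group (median 78.6 CPM) 1362 rose and 2010 fell. Low counts limit how far a scarce model can be seen to fall, so the lowest group cannot show falls as readily as rises.

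The near-equal numbers of rises and falls, which depend on the scaling, went with large shifts in the share of counts. Shares are of each library's total counts, without scaling. The 6343 models that rose held 13.4%, 15.7% and 19.9% of the counts in the earlier libraries, in order of time, and 47.6% in the late one. The 6200 models that fell held 35.7%, 32.7%, 26.7% and 7.58% in the same order. Models not called held between 44.6% and 53.2% of the counts in every library. The shares at 24 h describe the calls and are no further test of them. In both called groups the share had already shifted towards its 24 h value between 2.5 and 7.5 h.

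**Figure D2:**
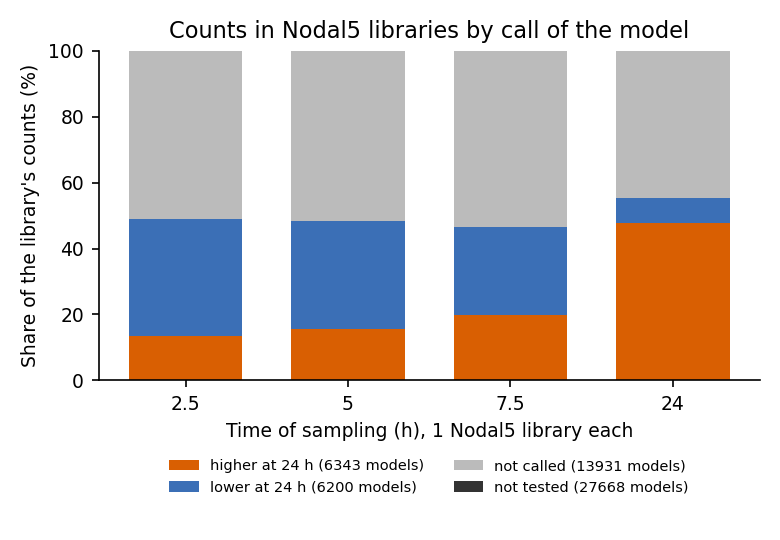
Share of each Nodal5 library's counts (vertical axis, %) held by models called higher, called lower, not called and not tested, with 1 library for each time point. The share of models called higher goes from 13.4% to 47.6% and that of models called lower from 35.7% to 7.58%.

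Most called models had earlier levels within 2-fold of each other, which also held for most models tested. A smaller share had already moved at least 2-fold by 7.5 h. Between 2.5 and 5 h, 3017 of the 26474 models differed at least 2-fold (11.4%), 1907 higher and 1110 lower at 5 h. Between 5 and 7.5 h 3251 did (12.3%), 1890 higher and 1361 lower. Between 7.5 and 24 h, a longer interval, 13124 did (49.6%), 6854 higher and 6270 lower. Each step sets 1 library against 1, so these numbers have no test. Of the models that rose by 24 h, 1575 were already at least 2-fold higher at 7.5 than at 2.5 h (24.8%), against 14.1% of all models tested, and 198 were at least 2-fold lower. Of the models that fell, 1291 were already at least 2-fold lower (20.8%), against 14.6% of all, and 30 were at least 2-fold higher. The 3 earlier levels lay within 2-fold of each other in 67.1% of the models that rose, in 77.7% of those that fell and in 67.9% of all models tested. Models that change between the earlier hours have a larger error in the test and are called less easily.

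In 3129 of the 6343 models that rose, every successive library was higher than the last, and in 3657 of the 6200 that fell every one was lower. Over all 26474 models tested, 5472 were higher and 5789 lower at every step, of which 2343 and 2132 were not called. As the 24 h level of a called model lay outside the earlier range, its last step was set by the call. A total of 2896 models were at least 8-fold higher at 24 than at 2.5 h, and for these a median of 34.1% of the log2 difference lay before 7.5 h. For the 1673 models at least 8-fold lower, the median was 33.1%. The 2.5 h library enters both the choice of these models and the share, so an error in it can raise the share. Of the 1907 models at least 2-fold higher at 5 than at 2.5 h, 976 (51.2%) were at least 2-fold higher again at 24 than at 7.5 h, and 230 (12.1%) were lower by as much. Of the 1110 models at least 2-fold lower at 5 h, 372 (33.5%) were at least 2-fold lower again at 24 h and 265 (23.9%) were higher. Over all models tested these shares were 25.9% higher and 23.7% lower. The first and last steps share no library.

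Steps between the earlier hours were set beside those of the other treatments. Over the 24073 models tested in every treatment, 27% differed at least 2-fold between 2.5 and 7.5 h with Nodal5. The share was 11.5% in control, 16.8% with GATA4-GR and 12.2% with GATA4-GR+Dkk-1. Between 7.5 and 24 h it was 47.6% with Nodal5, 52.4% in control, 47.2% with GATA4-GR and 51% with GATA4-GR+Dkk-1. From 2.5 to 5 h the share was 9.89% with Nodal5, 5.48% in control, 8.51% with GATA4-GR and 6.23% with GATA4-GR+Dkk-1. For the step from 5 to 7.5 h it was 10.5% with Nodal5 and from 3.26% to 4.57% in the others. The Nodal5 library at 7.5 h had the lowest total count of the Nodal5 libraries. Among the 13375 models with a mean of at least 10 CPM, a limit chosen after seeing the data, 22.2% differed at least 2-fold between 2.5 and 7.5 h with Nodal5, against 6.09% in control, 8.93% with GATA4-GR and 6.44% with GATA4-GR+Dkk-1. These shares compare single libraries and were not tested.

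**Figure D3:**
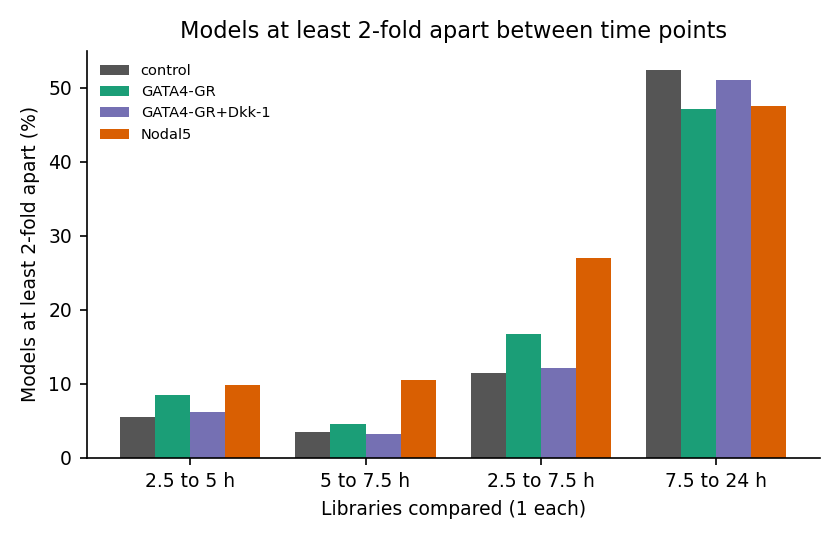
Share of the 24073 gene models tested in every treatment that were at least 2-fold apart between 2 libraries (vertical axis, %), for 4 pairs of time points and 4 treatments (1 library each). The Nodal5 bar is the tallest before 7.5 h, at 27% between 2.5 and 7.5 h, while the bars from 7.5 to 24 h lie between 47.2% and 52.4%.

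Few models were nearly uncounted before 24 h and well counted then, or the reverse. They are called first counted and lost here, although a few counts could remain. A total of 59 models had at most 3 counts summed over the 3 earlier Nodal5 libraries and at least 100 at 24 h, with 102, 208 and 4826 counts at 24 h for the lowest, the median and the highest. Together they held 0.163% of the 24 h counts. For the 16 of them with no earlier count, the 24 h level per total count was at least 124-fold to at least 884-fold higher, against a floor of 3 counts over the earlier libraries. In the other direction, 10 models had at least 100 counts in each earlier library and at most 3 at 24 h, with earlier means from 320 to 796 counts. Of these 10, 0 had no count at all at 24 h. These numbers follow from the limits set on the counts, and other limits gave from 19 to 183 models first counted and from 0 to 101 lost.

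The libraries of the other treatments, which did not enter these limits, were set beside both groups. Summed over the earlier hours, 34 of the 59 models had at most 3 counts in control, 31 with GATA4-GR and 34 with GATA4-GR+Dkk-1. Of the 59 models first counted at 24 h with Nodal5, 6 had at least 100 counts in the control library at 24 h, and 14 had as many with GATA4-GR and 14 with GATA4-GR+Dkk-1. The median count of the 59 at 24 h was 208 with Nodal5, 7 in control, 15 with GATA4-GR and 13 with GATA4-GR+Dkk-1. In control 23 of the 59 had at most 3 counts at 24 h, and 10 of these had at most 3 with both GATA4 treatments as well, beside 102 to 610 counts with Nodal5. Another 4 of the 59 had at least 100 counts at 24 h in all the other treatments. Of the models lost by 24 h, all 10 had at least 100 counts in each earlier control library, and their median count at 24 h was 5 in control, 5 with GATA4-GR and 7 with GATA4-GR+Dkk-1. In each of these 24 h libraries 1 of the 10 still had at least 100 counts, namely 1449, 256 and 233 in the same order. Since the 59 were picked for high counts in 1 Nodal5 library, lower counts elsewhere follow in part from that choice. The share over all models was not taken in the other treatments, so these numbers do not show how far either group was shared.

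At 5 or 7.5 h, 70 of the 26474 models (0.264%) stood at least 2 on the log2 scale above both the 2.5 and the 24 h library, 17 with the higher value at 5 h and 53 at 7.5 h. With a limit of 1 in place of 2 there were 434 such models. As many as 66 models showed the reverse, with 5 or 7.5 h that far below both. In the other treatments, which did not enter the choice, 6 of the 70 stood at least 1 on the log2 scale above both ends in control, 11 with GATA4-GR and 4 with GATA4-GR+Dkk-1. At a limit of 2 these were 0, 5 and 0. These heights were scaled over all models of each treatment, tested or not. On that scale 68 of the 70 passed the limit of 2 with Nodal5. The share over all models was not taken in the treatments without Nodal5, so these numbers do not show how far the peaks were shared. In the late comparison 2 of the 70 were called, both lower at 24 h, against 47.4% of all models. A peak widens the spread among the earlier libraries, which is the error of that test, so few calls follow from the choice.

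The model with the largest rise, Xelaev16009609m.g, had 1, 0 and 1 counts at 2.5, 5 and 7.5 h and 4826 counts at 24 h with Nodal5. Its level per total count was 8790-fold higher at 24 h (95% exact binomial interval 2430 to 72600, counting error only). The fitted log2 fold change was 13.2 (edgeR adjusted p = 0.0112, standard error 0.614). That standard error is the one implied by the F statistic. With 2 earlier counts in all, it does not measure the counting error that the interval shows. In the other 24 h libraries this model had 8 counts in control, 185 with GATA4-GR and 287 with GATA4-GR+Dkk-1. As the model was chosen for its Nodal5 rise, a larger change with Nodal5 is favoured by the choice. The Nodal5 late change exceeded that of control by 9.98 on the log2 scale (standard error 1.94, adjusted p = 0.00562) and that of GATA4-GR by 7.59 (standard error 1.21, adjusted p = 0.00399), both from the quasi-likelihood test over all 16 libraries.

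Among the models that rose, Xelaev16022024m.g had the smallest p-value, with 8, 6 and 5 counts earlier and 10942 at 24 h. This was 0.441, 0.242, 0.42 and 954 CPM, which made it the model of rank 113 in the 24 h library. Its log2 fold change was 11.36 (edgeR adjusted p = 0.0112, standard error 0.387). At 24 h it had 99 counts in control, 43 with GATA4-GR and 46 with GATA4-GR+Dkk-1, after at most 15 at any earlier hour. It rose in every treatment. It was chosen for its Nodal5 rise, and the tests of the difference use the same Nodal5 libraries, so an excess with Nodal5 is favoured by the choice. The late change with Nodal5 exceeded that of control by 6.59 (standard error 0.623, adjusted p = 6.33e-05) and that of GATA4-GR by 8.21 (standard error 0.649, adjusted p = 8.4e-05) on the log2 scale, with the edgeR test over all libraries.

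The fall of largest fitted size, in Xelaev16045170m.g, was a decline at every step. With Nodal5 it had 823, 281 and 40 counts in the earlier libraries, in order of time, and 0 at 24 h. The earlier level per total count was thus at least 105-fold higher than a floor of 3 counts at 24 h. Among the 10 models lost by 24 h this bound reached 219-fold, so the rank of Xelaev16045170m.g as the largest fall rests on the fitted value. The fitted log2 fold change of -11.38 (edgeR adjusted p = 0.0766, standard error 3.66) depends on how a count of 0 is treated. Control counts were 294, 205, 102 and 1, and both GATA4 treatments also ended at 1 or 2 counts. The late change did not pass the test of a difference from control (-4.56, standard error 8.24, edgeR adjusted p = 0.817). Without the 5 h library the Nodal5 fall was not called (edgeR adjusted p = 0.114).

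The fall with the smallest p-value, in Xelaev16026831m.g, came after a level course. With Nodal5 this model had 4510, 6424 and 3328 counts earlier, or 249, 259 and 280 CPM, and 129 counts or 11.2 CPM at 24 h. The earlier mean was 263 CPM with a standard deviation of 15.7 over the 3 libraries. The log2 fold change was -4.54 (edgeR adjusted p = 0.015, standard error 0.312). Control held 909 counts at 24 h and GATA4-GR held 236, after earlier levels between 246 and 289 CPM in both. The model fell in every treatment. It too was chosen on the Nodal5 libraries that the tests of the difference use. Those tests pool the spread over all treatments, so their standard errors can be smaller than that of the Nodal5 change alone. The Nodal5 fall differed from that of control by -2.83 (standard error 0.153, adjusted p = 3.49e-06) and from that of GATA4-GR by -0.72 (standard error 0.151, adjusted p = 0.0178) on the log2 scale, with the edgeR test over all libraries. None of its Nodal5 counts was deposited as a whole number, as happens where reads that match several models are divided.

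**Figure D4:**
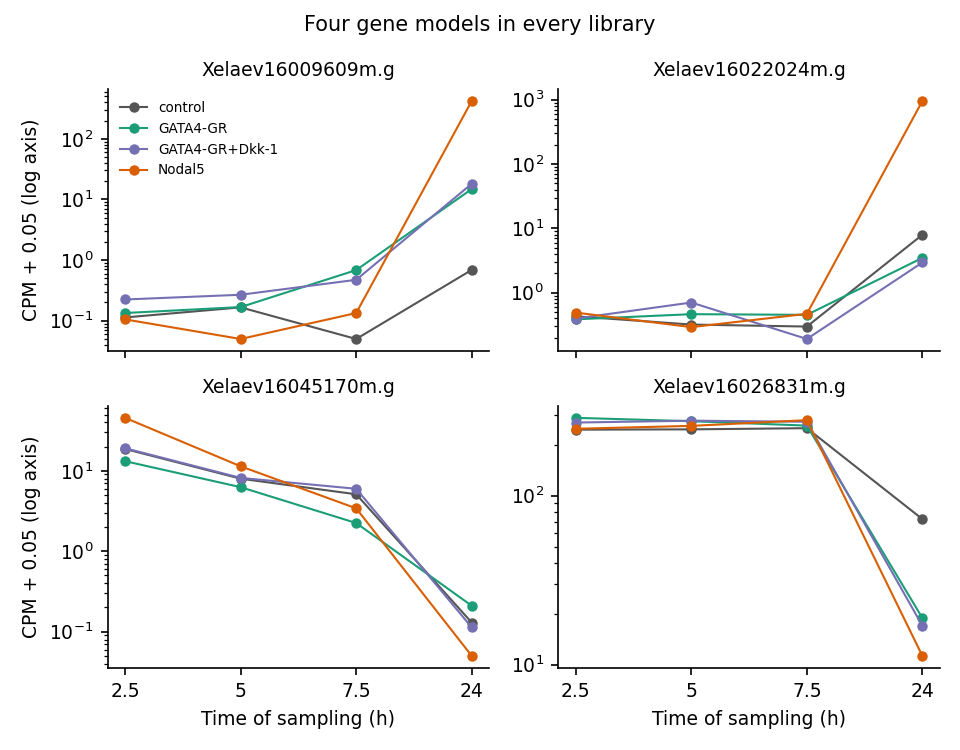
CPM plus 0.05 on a log axis against hours of culture for 4 gene models, 1 line per treatment and 1 library per point. The upper models rise to 421 and 954 CPM with Nodal5 at 24 h, and the lower models fall to 0 and 11.2 CPM.

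Much of the Nodal5 late course was shared with explants that had no Nodal5. The same test within control called 9250 models higher (34.1%) and 8721 lower (32.1%) at 24 h. Within GATA4-GR it called 8084 higher (29.6%) and 7492 lower (27.4%), and within GATA4-GR+Dkk-1 9579 higher (34.1%) and 8708 lower (31%). The biological coefficient of variation estimated by edgeR was 0.361 with Nodal5, 0.195 in control, 0.246 with GATA4-GR and 0.217 with GATA4-GR+Dkk-1. Fewer Nodal5 calls thus came with a wider spread among the earlier Nodal5 libraries. Of the 6343 models that rose with Nodal5, 5502 also passed the count filter in control and were tested there. Of these 5502, 4123 also rose in control (74.9% of these and 51.4% of the 8016 control rises), 1122 were not called and 257 fell. Of the 6200 that fell with Nodal5, 6135 were tested in control. Of these 6135, 4942 also fell in control (80.6% of these and 57.7% of the 8570 control falls), 796 were not called and 397 rose. Of the Nodal5 rises and falls tested with GATA4-GR (5683 and 6111), 74% and 79.6% were called in the same direction. With GATA4-GR+Dkk-1 (5793 and 6135 tested) 80.8% and 86.1% were. Nodal5 rises too scarce in the other treatment to be tested there are left out, which favours a high share.

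Sizes were set beside each other over the models tested in both treatments. This leaves out Nodal5 rises too scarce in the other treatment (median 2.28 with Nodal5 over all 6343 that rose). Models that rose with Nodal5 had a median log2 fold change of 2.08 with Nodal5 and 1.56 in control, and for models that fell the medians were -1.94 and -1.61. The same medians were 1.62 and -1.52 with GATA4-GR, and 1.75 and -1.69 with GATA4-GR+Dkk-1. Models chosen for their Nodal5 calls are larger with Nodal5 in part by that choice. Across models, Pearson's r of the late change was 0.664 between Nodal5 and control (24808 models), 0.741 between Nodal5 and GATA4-GR (24888 models) and 0.776 between Nodal5 and GATA4-GR+Dkk-1 (25218 models). Between GATA4-GR and control, with no Nodal5 library, it was 0.782 (25372 models). The treatments of a pair share no library but share each hour of sampling, and models are not independent, so no p-value is given.

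**Figure D5:**
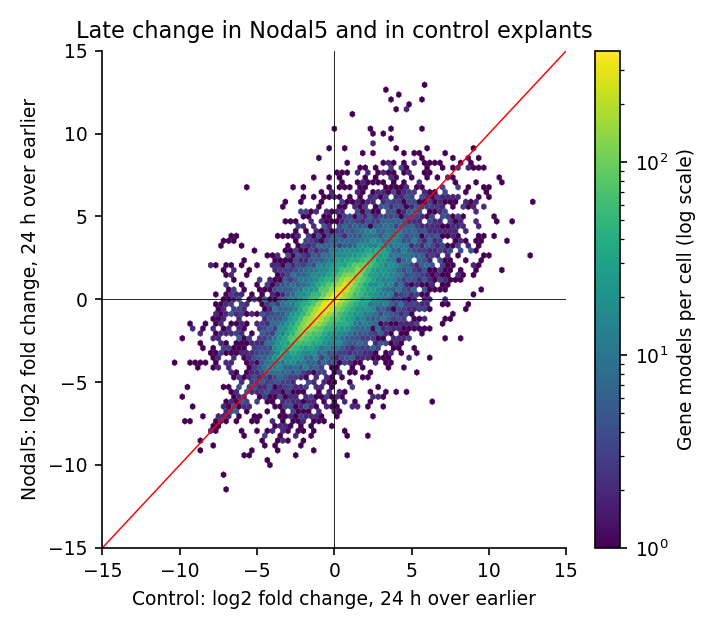
Log2 fold change of 24 h over the earlier libraries in Nodal5 explants (vertical axis) against that in control explants (horizontal axis), with colour for the number of gene models on a log scale and a red line where both are equal. Models spread along the red line (Pearson's r 0.664 over 24808 models), with some far from it on both sides.

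The late change itself differed between Nodal5 and the other treatments for part of the models. Tested as a difference of late changes over all 16 libraries, 5789 of 30958 models (18.7%) differed between Nodal5 and control, with a late change higher with Nodal5 in 2269 and lower in 3520. Where it was higher, the median late change was 1.07 with Nodal5 and -1.32 in control. In 422 of these models it was at least 1 with Nodal5 and at most -1 in control, in 538 it was at least 1 with Nodal5 and within 1 of no change in control, and in 649 it was within 1 of no change with Nodal5 and at most -1 in control. Where it was lower, the medians were -0.77 with Nodal5 and 1.66 in control. The largest group there, 1076 models, was at least 1 in control and within 1 of no change with Nodal5. In a further 755 the late change was at most -1 with Nodal5 and within 1 of no change in control. In 600 it was at most -1 with Nodal5 and at least 1 in control, and 522 were at least 1 in both but smaller with Nodal5. These counts describe models picked by the test of the difference. That test pools the spread over all treatments, with a biological coefficient of variation of 0.264, against 0.361 within Nodal5. Its p-values can therefore be too small for the spread of the Nodal5 libraries. Library totals alone gave 3389 higher and 2788 lower, upper quartile scaling gave 3022 and 2861, and without the 5 h libraries 1814 models were called.

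Fewer models differed from the GATA4 treatments. Against GATA4-GR 3010 models differed (9.72%), 1206 higher and 1804 lower with Nodal5, and against GATA4-GR+Dkk-1 2764 did (8.93%), 1193 higher and 1571 lower. Against GATA4-GR the higher models had a median late change of 1.5 with Nodal5 and -0.98 with GATA4-GR, and the lower ones -1.14 and 1.15. In 518 of the 1804 the change was at most -1 with Nodal5 and within 1 of no change with GATA4-GR, and in 490 it was at least 1 with GATA4-GR and within 1 of no change with Nodal5. Without the 5 h libraries 315 models differed from GATA4-GR. All these tests use the same Nodal5 libraries, so a deviation of the Nodal5 library at 24 h enters each of them.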

How the data were processed

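Read pairs were mapped by the authors with Bowtie against JGI gene models, version 7.2, and RSEM gave an estimate for each model. What was deposited is the expected counts, neither scaled nor pooled, for 54142 models in 16 libraries. Among the models tested in the Nodal5 libraries, 52.1% of the values were not whole, because reads that match several models (such as homeologous copies) are divided. Tool versions are not given in the sources used here.

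Counts were rounded to whole numbers. Models were kept with filterByExpr (minimum count 10), scaled by TMM and tested with edgeR 4.0.16 in R 4.3.3 (quasi-likelihood test, Benjamini-Hochberg adjustment, threshold 0.1 as in the paper's methods). The Nodal5 fit used 4 libraries, and differences of late changes used all 16 with a mean for each treatment before and at 24 h. Standard errors are the fold change divided by the root of the F statistic, and at very low counts they do not measure the counting error. Log2 CPM carries a prior count of 2. DESeq2 1.42.0 was an alternative, beside other scalings, filters, thresholds and left-out libraries. The tests were run on simulated counts with 200 planted changes of 2 on the log2 scale, and the earlier libraries were drawn as replicates. At a coefficient of variation of 0.3 they missed part of the planted late changes and most of the planted differences of late change. With so few changed models the adjustment is stricter than in the real data, so these recoveries do not carry over. A model not called is still not shown to be without change.

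Libraries differ in total count from 11339819 to 23310242, which limits counting error only. Comparisons set single libraries apart, so p-values set the difference at 24 h against the spread between earlier libraries of different hours. The 4 printed models are, in each direction, the called model with the largest fitted fold change and the one with the smallest p-value. Where that was the same model, the next smallest was taken. Planned gene lists were not run, since no identifier was paired with a symbol. The comparison and the tests were chosen with earlier results of these data known.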

Additional observations from a re-analysis of the deposited data

Results flagged for a closer look

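The late change differed between Nodal5 and control in 5789 models and between Nodal5 and GATA4-GR in 3010 models, by edgeR's test of the difference itself. Of the 4 models given by identifier, which were chosen on the same Nodal5 libraries, 3 were among them in both tests. Xelaev16009609m.g differed by 9.98 on the log2 scale from control and by 7.59 from GATA4-GR. Xelaev16022024m.g differed by 6.59 and 8.21, and Xelaev16026831m.g by -2.83 and -0.72. No library could be set apart from others of its group, since each group has 1 library.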

How the results depend on the processing

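Of the 49 alternatives to counts of models, 37 stayed within 1.5 times the reported count. For Nodal5 at 24 h against earlier, a threshold of 0.05 gave 7917 models, glmTreat against a log2 fold change of 1 gave 5796, leaving out the 5 h library gave 1416, and a log2 difference of at least 2 from the 7.5 h library alone, with no test, gave 5282. Without the 5 h libraries, 1814 models differed in late change from control and 315 from GATA4-GR, and at a threshold of 0.05 the latter count was 2003. The cause was not tested. With a lower and a higher limit on counts, models first counted at 24 h numbered 183 and 19 and models lost numbered 101 and 0, and peaks of at least 1 on the log2 scale numbered 434. All 4 models given by identifier kept their direction under 11 alternatives each. Xelaev16045170m.g lost the threshold under 3 of them, with adjusted p-values from 0.000187 to 0.125, and the other models stayed past it under each, at up to 0.0508, 0.0508 and 0.0744. These ranges include edgeR and DESeq2. The library of 7.5 h was the shallowest with Nodal5, at 11381810 counts.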
